A study of Mus musculus with 16 samples.

Results

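The regions described here are m6A peaks of mouse bone RNA that lie in genes with at least 6 peaks. N6-methyladenosine (m6A) is a methyl group that a methyltransferase complex places on adenosines inside messenger RNA, most often in long internal exons and near stop codons. Reader proteins bind methylated transcripts and influence their splicing, export, translation and decay. A peak is a stretch of exons where RNA captured by an anti-m6A antibody (IP) is enriched over uncaptured RNA (input). The members are all rows of the authors' deposited peak table whose gene name occurs in at least 6 rows. They were thus chosen by the number of peaks called on IP over input, and enrichment, from the same contrast, is given as a description with no test. The rule took 1474 of 13083 peaks (11.3%), in 187 of 6847 genes (2.73%). The bases of these peaks are not printed, and the annotation used here holds no exons, coding parts or UTRs, so no peak was placed in one.

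Bone of wild type mice was studied after ovariectomy, which removes the ovaries and is used to model bone loss under low estrogen, or after sham surgery. Each arm had 4 input and 4 IP libraries, 16 in all, and libraries titled NC were taken as sham and those titled OVX as ovariectomy. For the IP libraries titled NC the treatment field conflicts, since it too gives ovariectomy, and titles decided the arm. Age is not given in the sources used here, and the labels do not tell whether each library came from its own animal.

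Both tables hold the authors' own comparisons, with no value for a single library, so no value can be given per sample and no test over samples was run. The numerator arm is stated in neither. Enrichment is the ratio of IP over input. Arm differences of peaks and fold changes of RNA are log2 values, the latter with their SE. Signs of arm differences are therefore given as deposited, and need not have the same meaning in both tables. A peak is called different when its deposited p for the arm difference, which is not adjusted, is under 0.05. A gene is called when its deposited RNA adjusted p is under 0.05. RNA of all 8 bone markers checked was measured, with mean counts of 482 to 99868 in the authors' deposited table. Of these, 3 had positive and 5 negative fold changes, and 2 were called, Col1a1 at 1.12 and Bglap at 1.08. The 3 osteoclast markers were all negative, with Ctsk called at -0.72. Among 6 marrow markers 4 were positive and 2 negative, with Cd79a called at 1.07. RNA of all 7 skeletal muscle markers was measured as well, at mean counts of 19067 to 336368, and all 7 had negative fold changes between -1.62 and -1.01, of which 2 were called. In bulk tissue, fewer cells of a type and less RNA per cell cannot be told apart. Depth of single libraries is unknown.

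Most of the 187 genes sat close to the limit of the rule. Exactly 6 peaks were found in 77 genes, 7 in 40 genes, 8 in 25 and 9 in 15, while 30 genes had at least 10. Just outside the rule were 169 genes with 5 peaks. Peaks of genes with 6 had a median enrichment of 1.90 and those of genes with 5 had 1.90, in the authors' deposited table. Ttn, which encodes titin, the molecular spring of the muscle sarcomere, had 35 peaks. Next came Syne1, which links the nucleus to the actin cytoskeleton, with 19, Mki67, a coat protein of mitotic chromosomes, with 18, and Dst, a cytoskeletal linker, with 17. Cenpf, a kinetochore protein, had 16, the scaffold gene Ahnak 15, and Bod1l, which protects replication forks, and the histone methyltransferase gene Nsd1 had 14 each. Golgb1, a Golgi tether, Syne2, the sarcomere gene Neb and the cytoskeletal linker gene Macf1 each had 13.

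By function, of 60 listed chromatin regulators 22 were members, among them Nsd1, Phf3 with 12 peaks, Nsd2 with 10 and Ash1l with 9. Of 29 cytolinkers, spectrins and actin-binding proteins 12 were members, of 30 mitosis and proliferation genes 8, of 24 DNA repair genes and kinases of the PI3K-related family 7, and of 27 RNA processing and translation genes 7. Of 29 muscle sarcomere and triad genes 5 were members, and 12 had no peak. Only 2 of 29 collagens and large matrix proteins (Acan and Col11a1) and 2 of 20 giant ubiquitin ligases and deubiquitinases (Rnf213 and Herc1) were members. The deubiquitinase genes Usp47 and Vcpip1, also members, are not on that list. Of 26 vesicle traffic and calcium channel genes 1 (Golgb1) was a member. Among genes outside these lists, 12 centrosome and centriole genes, 17 zinc finger and homeobox factors and 8 Golgi and endosome tethers were grouped after the members' names were known. The tethers share Golgb1 with the vesicle list and the centrosome genes share Pcnt with the mitosis list. The lists and groups cover 101 members, and 86 stand outside them.

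Member peaks had a median of 200 exonic bases (quartiles 101 and 300), against 151 over all peaks (quartiles 101 and 249), in the authors' deposited table. A single exon block made up 59.6% of them (exact 95% interval 57.1 to 62.2), against 59.9% of all peaks. Together the peaks of a gene covered a median of 1702 exonic bases, from 753 to 7232, the latter in Ttn. All 187 genes had their peaks on 1 chromosome and 1 strand, 119 on the plus strand and 68 on the minus strand of the genome. No member peak overlapped another of its gene, and 8 overlapped a peak of a different gene, in Cmya5, Kdm5a, Macf1, Myo18b, Trp53bp1, Ttc14, Tut7 and Vcpip1.

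The 1287 pairs of neighbouring peaks were spaced very unevenly. Centres lay a median of 3090 genome bases apart (quartiles 699 and 9808, range 198.5 to 207660), and these distances include introns. In genes with 2 to 5 peaks the median was 4434.5 bases. The gap from the end of 1 peak to the start of the next was at most 1000 bases in 48.1% of pairs, against 39.3% in genes with 2 to 5 peaks. Gaps over 10000 bases separated 217 pairs. The median spacing of a gene ran from 296 bases in Zfp605 to 65026.5 in Stag1, with 49 genes under 1 kb and 29 over 10 kb.

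The most compact genes carried a row of peaks within a few kilobases. Zfp605, a zinc finger gene, had 6 peaks on chromosome 5, from 110127525 to 110129301, with 1.63 kb between the outermost centres. Their enrichments in the authors' deposited table, from the 5′ to the 3′ end, were 2.07, 1.5, 1.67, 2.38, 1.80 and 1.48. The zinc finger gene Zfp971 had 6 peaks with 2.27 kb between the outermost centres on chromosome 2, and the last and longest, of 397 bases, had an enrichment of 3.12 while the others lay between 1.32 and 1.75 in the authors' deposited table. Phf3, a regulator of transcription elongation, had a median spacing of 373 bases in spite of a span of 30.2 kb. At the other end stood Stag1, a cohesin subunit, with 6 peaks over 235 kb, the kinase gene Cdc42bpa, at a median of 38868.5 bases, and Col11a1, a collagen of cartilage, at 31171.5 bases. As a group, the 17 zinc finger and homeobox factors had a median spacing of 744.5 bases. The mitosis genes had 1086, the chromatin regulators 4846, the cytolinkers 6060 and the centrosome genes 6702.75.

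Short gaps fell on a grid. None was under 97 bases, 135 pairs had gaps of 97 to 100 bases, and the commonest single gap was 99 bases, in 86 pairs. Of the 467 gaps up to 500 bases, 418 (89.5%) lay between 2 bases below and 1 base above a multiple of 50. The same held for the exonic length of 98.0% of member peaks. Lengths and short gaps thus came in steps of about 50 bases. When peaks of a gene at most 150 bases apart were counted once, 131 genes still had at least 6, with 996 peaks, and the median spacing became 5126.5 bases.

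**Figure D1:**
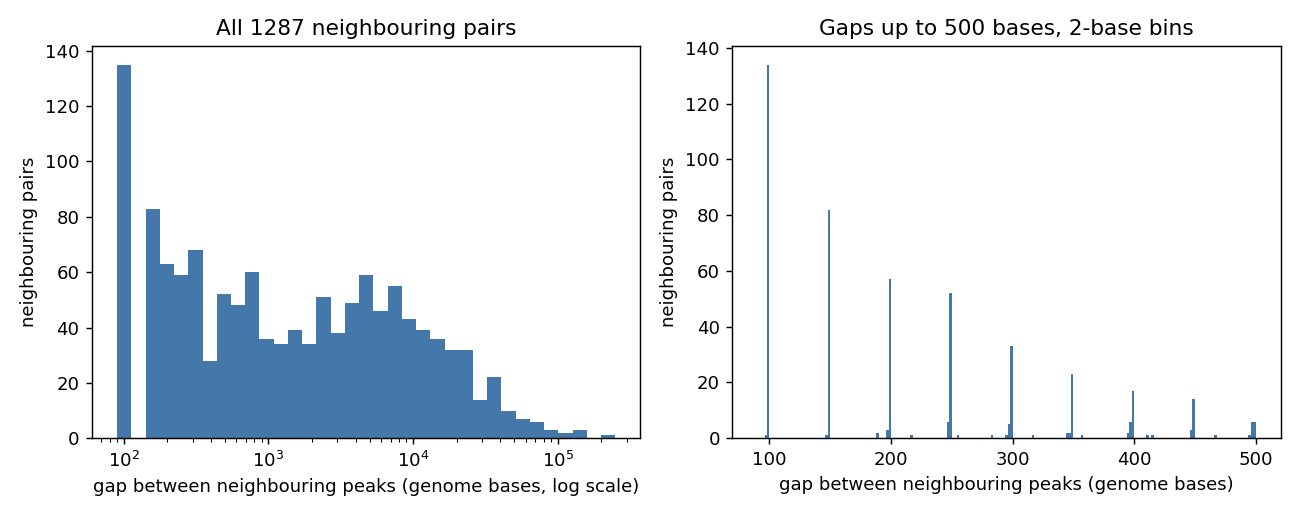
Gaps in genome bases between neighbouring peaks of the same gene, as numbers of pairs, for all 1287 pairs on a log axis (left) and for gaps up to 500 bases (right). The short gaps stand at multiples of about 50 bases, led by 135 pairs at 97 to 100 bases, and a broad second group lies at several kilobases.

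Neighbours often shared the p that the authors' deposited table gives for IP over input. It was identical to the printed digits in 336 of 1287 neighbouring pairs (26.1%), in 63.0% of pairs with gaps up to 100 bases and in 5.53% of pairs over 10000 bases apart. In genes with 2 to 5 peaks the share was 28.1%. The longest runs were 7 consecutive peaks, in Ttn (log10 p of -9.62) and in Tchh (-12.8), and all 6 peaks of Cep135 had -12.3, in the authors' deposited table. The p is therefore in places a value of a stretch of neighbouring peaks rather than of 1 peak. Enrichments within such a run differed: the 7 Ttn peaks of the run lay between 1.02 and 1.95 in the authors' deposited table.

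Enrichment of member peaks had a median of 1.91 (quartiles 1.59 and 2.33, range 1.02 to 4.64), and 44.4% reached a ratio of 2. Over all peaks the median was 1.82 and 37.3% reached 2. Most of the spread lay inside genes. On the log2 scale the SD among peaks of 1 gene was 0.35 and the SD between genes 0.16, so that 16.8% of the variance lay between genes. In genes with 2 to 5 peaks the SD within a gene was 0.35 and the share between genes 9.87%. The SD within a gene includes the error of each peak's ratio. Without values of single libraries this error cannot be separated from differences among peaks. The ratio of the highest to the lowest enrichment in a gene had a median of 1.95 (quartiles 1.69 and 2.25), and in 81 of 187 genes it reached 2. This ratio grows with the number of peaks, with a median of 1.83 for genes of 6 peaks and of 2.18 for genes of at least 10.

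The deposited enrichments of Syne1 were uneven. Of its 19 peaks, spread over 386 kb, the 3′ peak (chromosome 10, 5021145 to 5021895) had an enrichment of 3.46 in the authors' deposited table. The 5′ peak had 2.47 and the eighth from the 5′ end 2.33, and the other 16 lay between 1.12 and 1.84. The 3′ peak was also the longest, at 751 exonic bases, while no other peak of the gene passed 251. Xirp2, an actin-binding protein of muscle, had the widest ratio, 3.29. Its 8 enrichments in the authors' deposited table, from the 5′ end, were 2.70, 2.89, 2.42, 2.78, 2.50, 2.30, 1.34 and 4.41, and the 2 extremes were neighbours at the 3′ end. Vcpip1, a deubiquitinase, had a ratio of 3.16, with 4.20 at the peak of 300 bases on chromosome 1 (9745883 to 9746182) and 1.33 at its 5′ peak in the authors' deposited table.

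Other genes were even. Kat6a, a histone acetyltransferase, had the lowest ratio, 1.17, with 2.45, 2.45, 2.23, 2.38, 2.10 and 2.30 from the 5′ end in the authors' deposited table. Aff1, of the super elongation complex, and Rfx7, a transcription factor, had ratios of 1.28 and 1.30. Ryr1, the calcium release channel of muscle, was low throughout, with 7 peaks between 1.22 and 1.70 in the authors' deposited table. Trip11, a Golgi tether, was high throughout, with 8 peaks between 2.18 and 3.75. By group, median enrichment ran from 1.57 in the 2 matrix genes to 2.19 in the Golgi and endosome tethers. It was 1.69 in the cytolinkers, 1.80 in the muscle genes and 2.03 in the chromatin regulators.

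**Figure D2:**
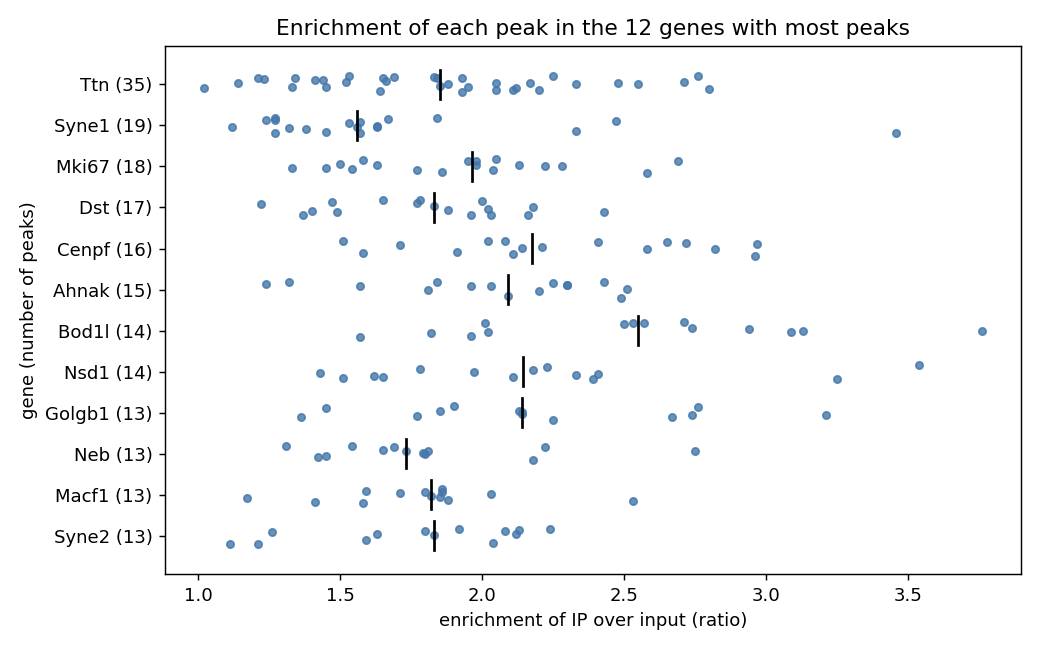
Enrichment of IP over input (ratio) for every peak of the 12 genes with most peaks, 1 point per peak, with the median as a vertical bar and the number of peaks in parentheses. Points of each gene spread over a wide range, and Syne1 has 16 peaks below 1.9 and 1 at 3.46.

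Longer peaks were more enriched, while the ends and the middle of genes had similar medians. Member peaks of up to 110 exonic bases had a median of 1.59 (quartiles 1.38 and 1.89), those of 111 to 210 bases 1.83, those of 211 to 410 bases 2.14 and longer ones 2.51 (quartiles 2.19 and 2.86). Genes with 2 to 5 peaks gave 1.59, 1.81, 2.11 and 2.45 for the same classes. The longest peak of a gene, or 1 of several of equal length, was its most enriched in 85 of 187 genes and stood above the gene's median in 163. By position, the 5′ peaks had a median of 1.86, the 3′ peaks 1.86 and the peaks between them 1.92. The 5′ peak was above the 3′ peak in 92 genes and below it in 95. The most enriched peak lay between the ends in 142 genes (75.9%), and 74.6% of member peaks lie there. Enrichments of neighbours at most 100 bases apart differed by a median of 0.28 on the log2 scale, and those of neighbours over 10000 bases apart by 0.38. Between these there was no steady order by gap. With bounds at 200, 500, 2000 and 10000 bases the medians were 0.36, 0.30, 0.33 and 0.33.

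Differences between the arms were small in most member peaks and few were called. The log2 arm difference had a median of 0.06 (quartiles -0.07 and 0.18, range -1.32 to 1.23) in the authors' deposited table, and 0.05 over all peaks. Of 1474 member peaks 926 (62.8%, exact 95% interval 60.3 to 65.3) were positive, against 60.6% of all peaks. The authors' deposited table called 89 member peaks (6.04%, exact 95% interval 4.88 to 7.38), against a background of 4.92% over all 13083 peaks. Positive calls numbered 63 (4.27%, background 3.6%) and negative calls 26 (1.76%, background 1.32%). These intervals cover counting error only and treat peaks as independent, which peaks of 1 gene are not. At a deposited FDR under 0.05 a single member peak was called. The Dst peak with the next smallest p, described below, had a log10 FDR of -0.593. An unadjusted p under 0.05 would call a share of about 0.05 even where no peak differs. The background of 4.92% is near that share, so the single calls named below describe deposited values and are not established differences.

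Calls were most frequent in the longest peaks. In the authors' deposited table, 4.30% of member peaks of up to 110 exonic bases, 4.0% of those of 111 to 210, 6.38% of those of 211 to 410 and 13.8% of longer ones were called. In genes with 2 to 5 peaks the shares were 3.19%, 4.29%, 5.85% and 13.8%. The share of positive signs increased with length over all 4 classes, from 53.9% of member peaks of up to 110 bases through 60.6% and 66.2% to 79.3% of the longest class, and from 55.7% to 78.0% in genes with 2 to 5 peaks. The absolute difference went the other way, from a median of 0.17 in the shortest class to 0.11 in the longest. Positive calls in members had a median length of 348 exonic bases, and 39 of 63 spanned several exon blocks. Negative calls had a median length of 176 bases, and 20 of 26 lay in a single block. Calls over all peaks were split in the same way. There, positive calls had a median of 201 bases, and 321 of 471 spanned several blocks. Negative calls over all peaks had a median of 151 bases, and 123 of 173 lay in a single block. Members have longer peaks than other genes, and the part of length in their share of calls was not tested.

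Most of the spread of arm differences lay among peaks of the same gene. The SD among peaks of 1 gene was 0.23 on the log2 scale and that between genes 0.05. Thus 4.87% of the variance lay between genes, against 6.83% in genes with 2 to 5 peaks. Here too the SD within a gene includes the error of each peak's value. Of 5995 pairs of peaks of the same gene, 3324 (55.4%) had equal signs, where the positive share alone gives 53.3%. In genes with 2 to 5 peaks these values were 55.8% and 52.4%. Neighbours had equal signs in 707 of 1287 pairs (54.9%), with no steady order by gap. From gaps up to 100 bases to gaps over 10000 bases, with bounds at 200, 500, 2000 and 10000 bases between, the shares were 54.8%, 46.9%, 51.9%, 54.8%, 59.4% and 56.2%. Among peaks with an absolute difference of at least 0.1, 58.7% of pairs had equal signs, where their positive share gives 54.6%. All peaks of a gene share the same libraries, and nearby peaks can share fragments.

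Positive peaks were in the majority in 128 genes, negative ones in 35, and 24 were even. All peaks of 12 genes had 1 sign, 11 of them positive. Golga4, a tether of the trans-Golgi network, had all 9 positive, in a narrow range. From the 5′ end its log2 differences in the authors' deposited table were 0.17, 0.20, 0.20, 0.25, 0.15, 0.16, 0.21, 0.19 and 0.11, and the first, the fourth and the seventh were called. Ash1l, a histone methyltransferase, Zc3h13, a subunit of the m6A writer complex, and Tpr, a nuclear pore protein, also had 9 positive peaks each, with medians of 0.11, 0.20 and 0.12 in the authors' deposited table. Xirp2 and Myo5a, a myosin motor of vesicle transport, each had 8, and Casp8ap2 had 7. Smc6, of a chromosome maintenance complex, Kdm5a, a histone demethylase, Hivep1, a zinc finger factor, and the muscle myosin gene Myh4 had 6 each. Only Crybg3 was negative throughout, with 8 differences between -0.32 and -0.0049 and none called in the authors' deposited table. Golgb1 had 12 of 13 positive, the exception being its 5′ peak at -0.08.

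In 73 of 187 genes at least 1 peak was called, in 59 of them exactly 1, in 12 genes 2 and in 2 genes 3. These 73 are 39.0% of the member genes, against 12.4% of genes with 2 to 5 peaks and 4.40% of genes with 1 peak, and a gene with more peaks has more chances of a call. The 14 genes with at least 2 held 30 called peaks, and in 12 of the 14 the called peaks had the same sign, 9 positive and 3 negative. Among genes with 2 to 5 peaks, 25 had at least 2 called and 23 of these had 1 sign. Golga4 had 3 positive calls, of 0.17, 0.25 and 0.21 (log10 p of -1.42, -1.89 and -1.93) in the authors' deposited table. Plec, which encodes plectin, a linker of intermediate filaments, had 2 negative calls in neighbouring peaks on chromosome 15. They ran from 76179639 to 76180687 and from 76180837 to 76181037, with -0.14 and -0.23 in the authors' deposited table, and 7 of the 10 Plec peaks were negative. Cntrl, of the centriole, had 0.23 and 0.14, and Mdn1, a ribosome assembly ATPase, 0.28 and 0.26, in the authors' deposited table. Myo18b, a myosin of striated muscle, had -0.67 and -0.17 in neighbouring peaks, and 7 of its 9 peaks were negative. Prrc2c was 1 of the 2 genes with calls of both signs, 0.04 and -0.18, and Bcl11a, a regulator of B cells and globin switching, named for this after its values were seen, was the other, with -0.30 at its second peak and 0.45 at its 3′ peak in the authors' deposited table.

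**Figure D3:**
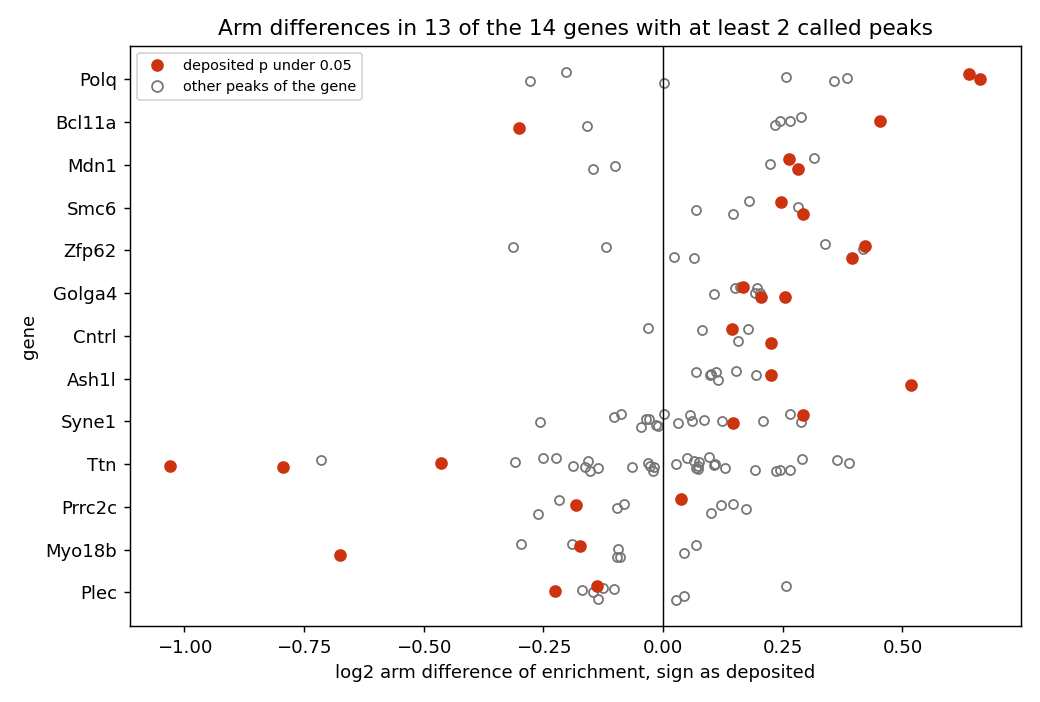
Log2 arm difference of every peak, sign as deposited, in 13 of the 14 genes with at least 2 called peaks, ordered by the gene's median, with called peaks filled and other peaks open. In 11 of these 13 genes the filled points lie on 1 side of 0, and in most genes the open points lie on both sides.

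For both signs, the other peaks of genes with a call had its sign more often than those of all member peaks. Even for negative calls, most other peaks were not negative. These differences were not tested. The other peaks of genes with a positive call were positive in 329 of 465 cases (70.8%), against 62.3% when the other peaks of every member peak are counted in the same way. The other peaks of genes with a negative call were negative in 128 of 277 cases (46.2%), against 37.7% when those of every member peak are counted. A gene with several calls enters these counts more than once. For positive calls the median of the gene's other peaks was also positive in 54 of 63 cases (85.7%), where 75% of all member peaks have such a positive median. For negative calls it was negative in 11 of 26 (42.3%), and 25% of all member peaks have such a negative median.

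Of the 12 called peaks with the smallest p, 6 of each sign, 8 were the only called peak of their gene. A Dst peak (chromosome 1, 34197225 to 34199528, 600 bases in 3 exon blocks) had 0.49 (log10 p of -3.61) in the authors' deposited table. It was the only called peak of 17 in Dst, whose others ran from -0.49 to 0.43. The Dst peak at -0.49 had a log10 p of -1.3 and missed the threshold only narrowly. A Mki67 peak (chromosome 7, 135699154 to 135699254) had -0.25 (log10 p of -3.11) in the authors' deposited table, while 15 of the 18 Mki67 peaks were positive and its neighbours on either side stood at 0.06 and 0.08. A peak of F5, coagulation factor V, had -0.67 (log10 p of -3.36), with 5 of the 7 F5 peaks positive. Among positive calls, Mdn1 had a log10 p of -3.48, Arid4b, a chromatin protein, 0.28 with -3.12, and Myo18a 0.34 with -2.71 in the authors' deposited table. The 3′ peak of Phf3 had 0.18 with -2.74. Slfn5, an interferon-inducible gene, had -0.70 with -2.31 at 1 of 7 peaks in the authors' deposited table. The 5′ peak of Kif21b, a kinesin, stood at 0.05 with a log10 p of -434, while its other 5 peaks, at -0.08 to 0.15, had log10 p values no lower than -0.68 in the authors' deposited table. The next smallest log10 p of a member peak was -3.61. The single call past the FDR threshold rests on this p alone, whose soundness cannot be checked from the table, and its difference is smaller than the median absolute difference of member peaks, 0.14.

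Titin's 35 peaks covered 7232 exonic bases over 262 kb of chromosome 2 and differed along the transcript. Ranges along the transcript were compared after the values were seen. The 12 peaks nearest the 5′ end had a median enrichment of 2.21 (range 1.14 to 2.80), the next 12 had 1.84 (1.41 to 2.71) and the 11 nearest the 3′ end 1.45 (1.02 to 2.11), in the authors' deposited table. Arm differences were positive in 8 of the 12 peaks at the 5′ end, in 3 of the middle 12 and in 7 of the 11 at the 3′ end. All 3 called peaks were negative and lay within the middle range, between positions 76724967 and 76730111. In the authors' deposited table they stood at -1.03, -0.46 and -0.79 (log10 p of -2.14, -1.65 and -1.49). Another peak of that stretch, with -0.16, was negative and not called. RNA of Ttn had a fold change of -1.89 ± 0.70 (SE) and an adjusted p of 0.053, which missed the threshold, per the authors' deposited table.

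**Figure D4:**
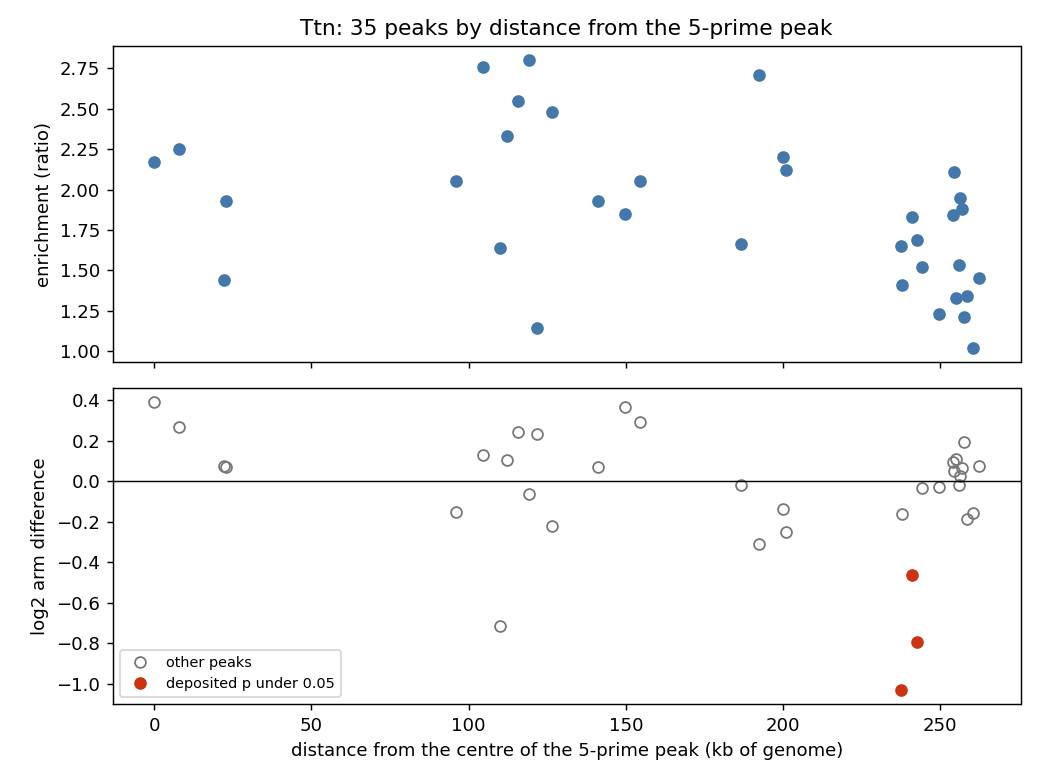
Enrichment (ratio, top) and log2 arm difference with its sign as deposited (bottom) of the 35 Ttn peaks, by distance from the centre of the 5′ peak in kb of genome. The 3 filled points, called peaks, lie 238 to 243 kb along, at -0.46 to -1.03, and the enrichments of the 11 peaks nearest the 3′ end stay at or below 2.11.

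The other 4 members of the muscle sarcomere and triad list each had mostly 1 sign. Myo18b and Cmya5, also members and of muscle, are not on that list and are not in its counts. Of their peaks, 7 of 9 were negative in Myo18b and 6 of 7 positive in Cmya5. Neb, which encodes nebulin, had 11 of 13 peaks positive and none called, with differences from -0.09 to 0.30 in the authors' deposited table. Xirp2 had 8 of 8 positive with 1 called (0.55), and Myh4 6 of 6 with 1 called (0.14). Ryr1 had 6 of 7 negative with 1 called (-0.37). Together the 5 listed muscle genes had 69 peaks, 44 of them positive, with 2 positive and 4 negative calls. These calls are 2.90% and 5.80% of their peaks, against 3.6% and 1.32% of all peaks, and 3 of the negative calls were in Ttn. RNA of the 5 genes had a median fold change of -1.57. Of these 5 only Neb was called, with -1.94 ± 0.61 (adjusted p = 0.019) in the authors' deposited table. Outside the list, RNA of Cmya5 was called as well, at -2.08 ± 0.59, and that of Myo18b was not. Of the full list of 29 muscle genes, 11 were called negative and none positive, with a median of -1.50. Over all tested genes 6.11% were called negative and 6.07% positive. All 7 skeletal muscle markers had negative RNA fold changes as well, as given above, and the part of muscle content in these peaks was not tested.

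Among the other lists, the Golgi and endosome tethers had 43 of 61 peaks positive and 7 positive (11.5%) and no negative calls. Golga4 alone held 3 of these 7 calls and 9 of the positive peaks, and Eea1, Hook3 and Washc2 had no call. RNA processing genes had 41 of 55 positive, with 4 positive (7.27%) and 2 negative (3.64%) calls, and a median difference of 0.09. The 12 centrosome genes had 64 of 96 positive (3 positive and 2 negative calls, 3.12% and 2.08%), and the chromatin regulators 113 of 183 (8 and 2, 4.37% and 1.09%). The cytolinkers had 79 of 130 positive (7 and 3, 5.38% and 2.31%), the mitosis genes 52 of 85 (no positive and 2 negative, 2.35%) and the DNA repair genes 34 of 52 (3 positive, 5.77%, and no negative). Zinc finger and homeobox factors had 68 of 118 positive (5 and 2, 4.24% and 1.69%). The 2 members of the giant ubiquitin ligase and deubiquitinase list had 9 of 16 positive (no positive and 1 negative). The 2 matrix genes had 6 of 12 (1 positive). Over all members 62.8% of peaks were positive, and 4.27% were called positive and 1.76% negative, against 3.6% and 1.32% of all peaks. Most of these counts are of 5 peaks or fewer.

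RNA of all 187 genes was measured with an adjusted p. Mean normalized counts ran from 309 in Zfp605 to 336368 in Myh4, with a median of 7605, against 853 over all genes tested. The median RNA fold change was 0.0026 (quartiles -0.14 and 0.20), and -0.02 over all genes tested. The authors' deposited table called 31 of the 187 (16.6%, exact 95% interval 11.6 to 22.7), against a background of 12.2% over 15396 tested genes. Positive calls numbered 16 (background 6.07%) and negative calls 15 (background 6.11%). Among the 10590 tested genes with a mean count of at least 309, 14.3% were called.

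The RNA calls fell on genes of several kinds. Chromatin regulators had 4 positive calls of 22 members and none negative: Arid1b, Kmt2a, Kmt2d and Srcap, with fold changes of 0.34 ± 0.08, 0.32 ± 0.10, 0.44 ± 0.14 and 0.33 ± 0.10 (SE) in the authors' deposited table. In the full list of 60 chromatin regulators 10 were positive and 1 negative, where 6.07% and 6.11% of all tested genes were. Of the mitosis members 2 were called positive, Knl1 of the kinetochore with 0.47 ± 0.14 and Numa1 of the spindle pole with 0.26 ± 0.06. Aff1 had 0.31 ± 0.06 (adjusted p = 6.5e-05), the smallest p of any member, and Rnf213, an interferon-inducible ubiquitin ligase, 0.73 ± 0.17 in the authors' deposited table. Zfp646 had 0.26 ± 0.06. Negative calls included Dst with -0.97 ± 0.21, Golga4 with -0.68 ± 0.17, Usp47, a deubiquitinase, with -0.44 ± 0.10, Myo5a with -0.33 ± 0.07 and Zc3h6 with -1.23 ± 0.25 in the authors' deposited table. Cmya5, a muscle protein of the Z-disc, had the lowest fold change of a called member, -2.08 ± 0.59, and was named for this after its value was seen.

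For the 4 genes of each sign with the smallest RNA p, RNA and peak values stand side by side. RNA and peak comparisons share the input libraries, so no relation between them is computed. Among genes with a positive RNA fold change, Aff1 had 4 of 6 peaks positive (median difference 0.11) and Rnf213 3 of 9 (median -0.06) in the authors' deposited table. Zfp646 had 1 of 8 positive (median -0.16) and Arid1b 2 of 6 (median -0.06). Among genes with a negative RNA fold change, Myo5a had 8 of 8 peaks positive (median 0.18) and Usp47 6 of 8 (median 0.11) in the authors' deposited table. Dst had 10 of 17 positive (median 0.06) and Zc3h6 3 of 6 (median 0.04).

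**Figure D5:**
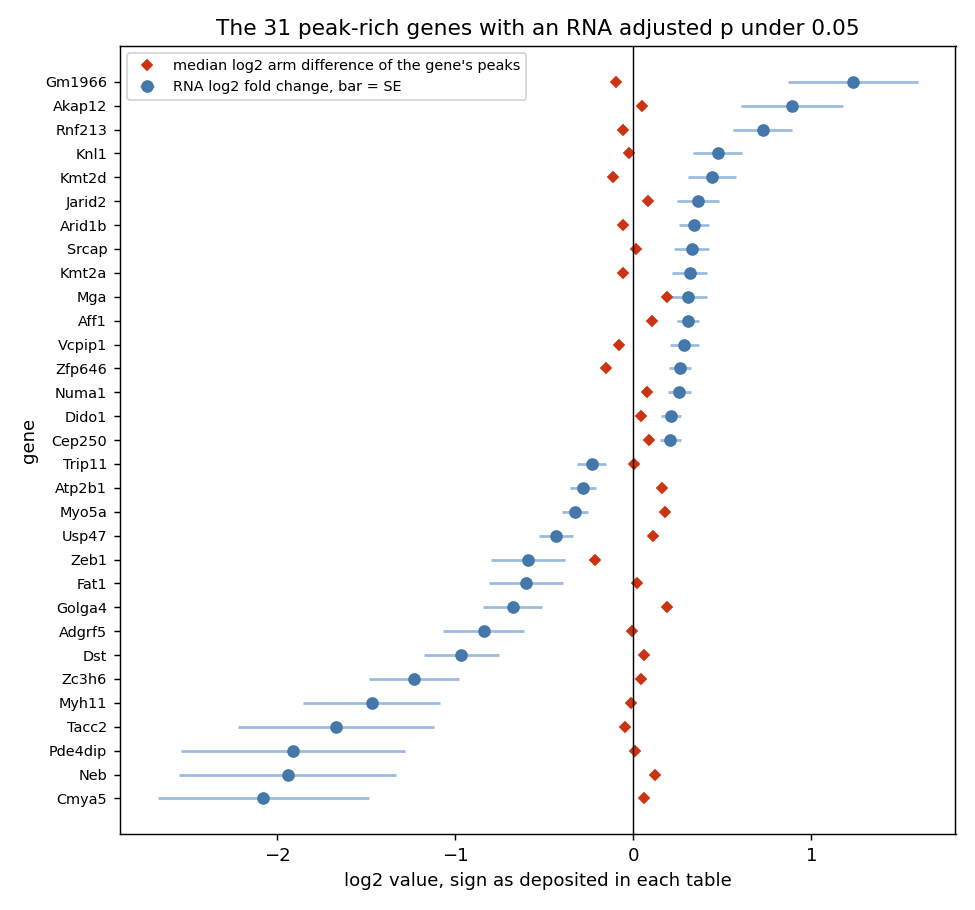
RNA log2 fold change with its SE as a bar (circles) and the median log2 arm difference of the same gene's peaks (diamonds) for the 31 members with a deposited RNA adjusted p under 0.05, signs as deposited in each table. RNA values run from -2.08 to 1.23, while the medians of the peaks stay between -0.22 and 0.19.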

How the data were processed

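Peaks of m6A and RNA fold changes came from 2 tables of mouse bone after ovariectomy or a sham operation. Per the submitters' processing notes, HISAT2, StringTie, DESeq and the rat build rn6 were used, with no roles or versions. How peaks were called, on pooled or single libraries, is not given in the sources used here. Per the file headers, the authors deposited for each peak a p-value against input, log10 values of this p and its FDR, an enrichment ratio, a log2 arm difference, and log10 values of its p and FDR, kept as a score since 1 reaches -434. For each gene the authors deposited a mean signal in normalized counts, its log2 fold change and SE, a Wald score, and p-values before and after adjustment.

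All 187 gene symbols were in the GRCm38.p6 RefSeq annotation, and all 1474 member peaks fell within their own gene there, so coordinates are read as that build. No coordinate comes from the annotation. The table has BED layout, and 1 was added to starts. Peaks were ordered 5′ to 3′ by the deposited strand. Spacing is the distance between centres in genome bases. The share of variance between genes is a moment estimate from a one-way model with genes as random, tested on simulated data. Intervals are exact binomial (95%). No test was run, since no per-library values were used and peaks of a gene are not replicates. If replicates are technical, the deposited p-values measure technical spread.

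The members, lists and rules were chosen with earlier results of these data known. Named genes are the 12 with most peaks, 6 peaks per sign with the smallest p, up to 8 genes with at least 2 called peaks, 3 at each end of ratio and spacing, up to 4 RNA calls per sign and up to 4 genes per list. Predicted genes were left out. 1 of the genes with at least 2 called peaks is counted but not reported here by name. Genes with peaks of 1 sign are named as a full account of that count. Genes named outside these rules, among them those behind counts of 5 or fewer, were chosen after their values were seen. Python 3.11.15, numpy 2.4.6, pandas 2.3.3, scipy 1.17.1 and matplotlib 3.10.9 were used.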

Additional observations from a re-analysis of the deposited data

How the results depend on the processing

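No paired analysis was possible because neither table holds values of single libraries, and for the same reason no replicate was left out. Exonic spacing was not run, since no exon annotation was used. With thresholds of 5, 8 or 10 peaks per gene, the shares of called peaks and of RNA calls kept within the intervals of their reported values. The median ratio of enrichments was 1.85, 2.03 and 2.18 at these thresholds, and the median spacing 3403, 2584.5 and 3220.5 bases. Both lay within the quartiles of single genes or pairs, which are too wide to serve as a check of a median. Counting overlapping peaks once changed neither of them, nor the share of called peaks. The split of calls by sign differed with the number of peaks. Genes with exactly 6 peaks had 20 positive and 3 negative calls (4.33% and 0.65% of their peaks). Those with at least 10 had 11 and 10 (2.77% and 2.52%). Of these 10 negative calls Ttn held 3 and Plec 2, so the split rests on small counts and few genes. The share of pairs with equal signs was 53.9% with at least 10 peaks per gene and 58.7% among differences of at least 0.1. Called peaks were 1.70% of members at a p under 0.01 (1.44% of all peaks) and 0.0678%, a single Kif21b peak, at an FDR under 0.05 (0.0229% of all). RNA calls at an adjusted p under 0.01 were 9.63% (5.73% of all tested genes). The ratio of the second highest to the second lowest enrichment had a median of 1.45. Counting peaks at most 150 bases apart once, chosen after seeing the data, gave a spacing of 5126.5 bases, as its construction removes short gaps, and 6.43% called peaks. Without Ttn, also chosen after seeing the data, 5.98% of peaks were called and 56.2% of pairs had equal signs. The depth behind each peak is unknown, so a peak without a call may still differ.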
